A study of Mus musculus with 12 samples.

Results

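Histone H3 dimethylated at lysine 4 (H3K4me2) was compared between C2C12 myoblasts and the myotubes formed from them, using the 2 of 12 deposited chromatin immunoprecipitation (ChIP-seq) libraries whose antibody was against this mark, 1 library for each cell type. C2C12 is a mouse myoblast line, labelled as strain C3H and grown for 15 to 18 passages. The myoblast library came from nearly confluent cells kept in 10% serum. The myotube library came from cells about 5 days after serum withdrawal, freed of unfused cells by a light trypsin treatment. The other 10 libraries hold H3K4me3, H3K4me1, H3K27ac, H3K27me3 and H3K36me3 from the same line and the same pair of cell states. No input or untreated control library was used here, and with 1 library per cell type there was no replicate check, so that each difference compares 2 libraries of a single line and not 2 conditions. H3K4me2 reads were counted within 1 kb of 1 transcription start site (TSS) for each of 22342 protein-coding genes of the mm9 genome, and over the 57509 regions obtained by merging the 2 deposited H3K4me2 peak lists.

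H3K4me2 is laid down by the MLL and SETD1 methyltransferases and is found at promoters, where it flanks the more narrowly placed trimethyl mark, and at enhancers, where it overlaps monomethylated H3K4. It can lie both on genes in use and on genes held ready for later use. Skeletal myoblasts leave the cell cycle and fuse under the control of the MyoD family (Myf5, Myod1, Myog, Myf6), which binds E-box sequences and acts together with MEF2 factors, after which the genes of the contractile apparatus, of calcium release and of the neuromuscular synapse are switched on.

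The sequences that carry the main differences are shown first. Reference sequence was read from the NCBIM37 assembly (the Ensembl name of mm9), 5′ to 3′ on the strand given. Capitals mark matches, on either strand, to 1 of 5 motifs, namely the E-box CAGCTG, AP-1 as TGACTCA or TGAGTCA, MEF2 as CTATTNNTA or TANNAATAG, TEAD as CATTCC or GGAATG, and RUNX as AAACCACA or TGTGGTTT. The 300 bases before the TSS of Myog (plus strand, chr1:136186281-136186580), Tnnt3 (plus strand, chr7:149684477-149684776) and Neb (minus strand, chr2:52190655-52190954) are given as promoters with more H3K4me2 in the myotube library, and those of Aqp1 (plus strand, chr6:55286126-55286425) as the promoter with the most myoblast reads among the 15 with the smallest ratios. The Sesn1 window (plus strand, chr10:41539299-41539598) lies in an intron and in a region with no myoblast read. The last window (plus strand, chr2:180127425-180127724) lies between the genes of the muscle microRNAs Mir1a-1 and Mir133a-2 and was chosen after its values were seen. The windows from Sesn1 and from the microRNA locus are the 300 bases of their region with the most motif matches.
Myog: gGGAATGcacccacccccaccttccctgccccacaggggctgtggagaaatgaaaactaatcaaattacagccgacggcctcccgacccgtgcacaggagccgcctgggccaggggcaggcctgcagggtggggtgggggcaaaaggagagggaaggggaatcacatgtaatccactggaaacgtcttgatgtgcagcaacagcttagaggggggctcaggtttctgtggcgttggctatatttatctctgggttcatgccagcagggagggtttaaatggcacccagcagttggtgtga
Tnnt3: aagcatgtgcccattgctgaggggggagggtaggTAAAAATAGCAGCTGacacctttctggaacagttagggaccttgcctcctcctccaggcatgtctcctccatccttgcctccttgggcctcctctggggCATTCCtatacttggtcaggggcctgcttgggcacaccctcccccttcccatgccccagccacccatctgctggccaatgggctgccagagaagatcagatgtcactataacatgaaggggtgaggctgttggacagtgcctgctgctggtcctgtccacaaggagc
Neb: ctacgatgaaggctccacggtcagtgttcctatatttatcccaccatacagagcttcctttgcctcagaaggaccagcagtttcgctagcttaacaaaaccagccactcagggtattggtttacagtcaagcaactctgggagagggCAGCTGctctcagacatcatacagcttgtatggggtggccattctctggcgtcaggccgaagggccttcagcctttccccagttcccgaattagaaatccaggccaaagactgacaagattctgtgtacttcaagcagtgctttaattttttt
Aqp1: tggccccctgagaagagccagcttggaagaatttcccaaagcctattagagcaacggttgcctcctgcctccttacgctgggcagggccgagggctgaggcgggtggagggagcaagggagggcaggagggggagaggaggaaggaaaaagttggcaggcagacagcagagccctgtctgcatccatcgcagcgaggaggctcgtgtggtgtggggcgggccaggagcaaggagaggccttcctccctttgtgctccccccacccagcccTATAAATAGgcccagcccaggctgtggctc
Sesn1 intron: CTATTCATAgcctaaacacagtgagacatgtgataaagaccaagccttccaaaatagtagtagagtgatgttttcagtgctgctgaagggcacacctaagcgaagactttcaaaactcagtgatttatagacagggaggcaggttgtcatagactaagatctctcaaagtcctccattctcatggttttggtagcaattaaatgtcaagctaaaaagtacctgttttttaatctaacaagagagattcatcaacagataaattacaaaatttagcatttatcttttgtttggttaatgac
Mir1a-1 and Mir133a-2: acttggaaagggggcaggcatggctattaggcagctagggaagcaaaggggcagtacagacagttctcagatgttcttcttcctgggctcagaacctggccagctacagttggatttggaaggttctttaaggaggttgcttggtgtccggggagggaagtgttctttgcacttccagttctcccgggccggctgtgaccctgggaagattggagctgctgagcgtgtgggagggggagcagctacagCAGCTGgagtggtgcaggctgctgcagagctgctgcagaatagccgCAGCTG
Myog holds 1 TEAD match, Neb 1 E-box, and Tnnt3 1 E-box, 1 MEF2 and 1 TEAD match, the E-box and the MEF2 match lying side by side. Aqp1 holds 1 match to the MEF2 letters, which the letters of a TATA box can also give. The Sesn1 window holds 1 MEF2 match and the microRNA window 2 E-boxes. From 250 bases before to 50 after the TSS, 15.3% of all 22342 promoters held the E-box, 4.34% AP-1, 2.29% MEF2, 12.9% TEAD and 1.58% RUNX. A match is a description of the letters and no evidence of binding. The search covered only the letters given, so that a sequence without a match can still hold other forms of a motif.

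The 2 libraries held 4292142 (myoblast) and 4757119 (myotube) uniquely aligned reads of 34 bp, within the range of 1858771 to 7033100 reads over all 12 libraries. They differed in how much of the signal lay in peaks. In myoblasts 57.6% of reads fell in the library's own peaks and 34.8% within 1 kb of a TSS used here, against 35.6% and 20.6% in myotubes, while 10 kb windows without any peak held 24.4% and 37.9% of the reads. The deposited lists held 38022 peaks of median width 938 bp in myoblasts and 57087 of 466 bp in myotubes. They also differed in base composition. In windows without peaks the ratio of myotube to myoblast reads was 2.95 in the poorest in G and C of 5 equal groups of windows (median GC 35.7%) and 1.09 in the richest (46.5%), whereas the same ratio ran only from 1.02 to 0.900 for H3K4me3. The X chromosome held 1.44 times the myotube to myoblast ratio of all such windows, against 0.889 to 1.09 for the autosomes.

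For these reasons each ratio of myotube to myoblast reads, computed with 1 read added to each count, is given on 2 scales. The first scales by total reads. The second scales by the reads in the 22830 regions with a peak in both lists, and shifts every log2 ratio by 0.66 upward (the ratio between the scales was 0.633). A promoter, region or window was called past 2-fold only when it held at least 30 reads in both libraries together, its ratio was at least 2 or at most 0.5 and its 95% interval, taken from the reads themselves by the exact conditional binomial method, lay beyond 1, on both scales. Where no scale is named, a ratio is on the total-read scale. A further scaling, within 10 bins of GC content so that the median ratio of each bin is 1, was chosen after seeing the data. All intervals cover counting error only, since amplified reads are not independent molecules.

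The labels were checked against promoters of known markers. The 7 myotube markers (Myog, Myh3, Ckm, Acta1, Tnnt3, Chrna1 and Atp2a1) had 206 H3K4me2 reads in the myoblast library and 749 in the myotube library, and 3 of them overlapped a myoblast peak against 7 that overlapped a myotube peak. Markers of proliferating myoblasts (Myf5, Ccna2, Mki67, Id1, Id3 and Cdk1) kept high promoter signal in both, with 587 and 513 reads, as did Myod1, Cdh15 and Des with 284 and 233. Of the markers of other cells, those of blood and macrophages had 16 and 27 reads over 4 genes, of which Cd68 held 14 and 21, with Ptprc at 0 and 3 and Emr1 at 1 and 0. Those of epithelium and liver had 34 and 17 over 4 genes, of which Cdh1 held 23 and 12, with Alb at 0 and 2. The 4 neuron markers had 87 and 55 reads, of which Syn1, with a peak in both lists, held 77 and 42. Promoters of some fat, bone and cartilage, and endothelial markers carried the mark in myoblasts and less of it in myotubes. These were Pparg, a fat cell regulator (158 and 65 reads), Sox9, a cartilage regulator (158 and 59), and Kdr, a receptor for vascular endothelial growth factor (127 and 24), which overlapped no myotube peak. Runx2 had 148 and 104 reads (ratio 0.636, and 1.005 on the shared-region scale). The remaining markers of these cells had at most 14 reads in either library, with Adipoq (4 and 7) and Pecam1 (9 and 14) in the other direction.

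At promoters as a whole the myotube library held less H3K4me2 than the myoblast library on the total-read scale. Of 22342 promoters, 11515 overlapped a peak in both lists, 1161 in the myoblast list only, 303 in the myotube list only and 9363 in neither. Over the 11515 shared promoters the median ratio was 0.606 (95% interval 0.602 to 0.613), and on the shared-region scale it was 0.958 (0.951 to 0.968). Over the 12753 promoters with at least 30 reads the median was 0.594, with 13.8% of ratios above 1, and on the shared-region scale 0.939, with 44.5% above 1. The plot of H3K4me2 around start sites shows the same for the mean profile, which at shared promoters peaked 325 bp after the TSS in myoblasts at 1.06 RPM (reads scaled to library size) per 50 bp bin and 475 bp after it in myotubes at 0.534. The median promoter ratio was 0.860 in the GC bin of tested promoters with the lowest content (48.9%) and between 0.535 and 0.571 in the upper 6 of the 10 bins.

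**Figure D1:**
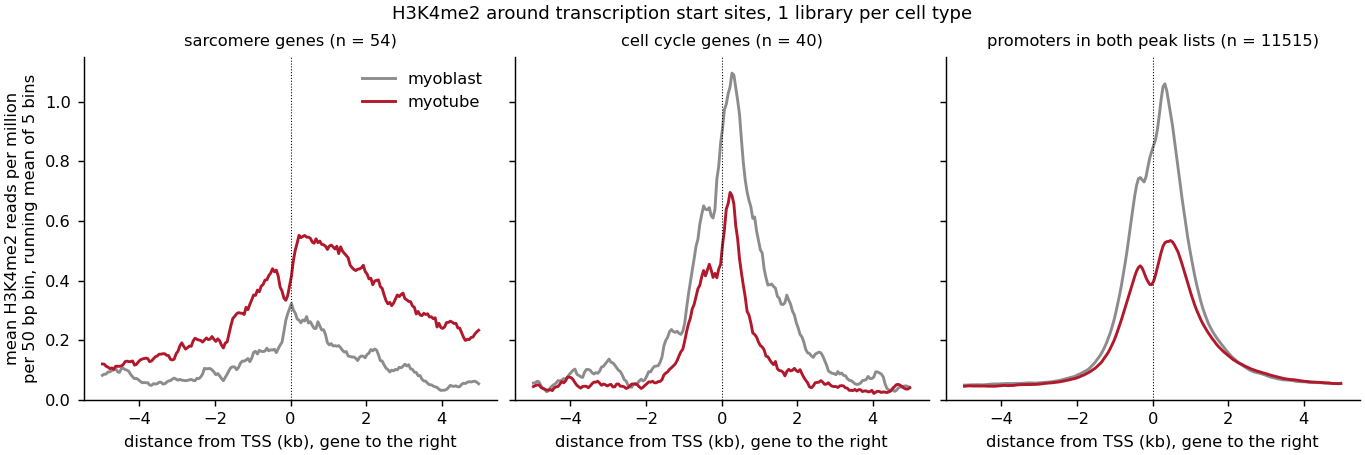
Mean H3K4me2 in RPM per 50 bp bin (running mean of 5 bins, total-read scale) against distance from the TSS in kb, for 54 sarcomere genes, 40 cell cycle genes and 11515 promoters with a peak in both lists, with 1 myoblast library (grey) and 1 myotube library (red). At sarcomere genes the myotube line lies above the myoblast line from the TSS to 5 kb into the gene, whereas at cell cycle genes and shared promoters the myotube peak is the lower.

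Past 2-fold, 257 promoters (2.02% of those tested) had more H3K4me2 in myotubes and 1328 (10.4%) had less. The split depended on the scale, being 257 higher and 4578 lower on total reads alone, 822 and 1328 on shared regions alone, and 889 and 1103 within GC bins, where all 257 of the higher and 983 of the lower promoters were again past 2-fold. The return of all 257 was fixed in advance and is no check on GC content. Each bin's median ratio was below 1 (0.535 to 0.860), so scaling within bins could only raise a promoter's ratio. The 2 classes were unlike in starting state. The higher promoters had a median of 13 myoblast and 61 myotube reads, 101 of them (39.3%) overlapped a myoblast peak, and 61 had 5 or fewer myoblast reads. The lower promoters had a median of 120 and 30 reads, 98.6% overlapped a myoblast peak and 63.6% still overlapped a myotube peak. The read minimum bears on this, because a promoter with few myoblast reads could enter the test only through its myotube reads, as 210 of the 257 did. CpG-rich promoters made up 8.17% of the higher class (Clopper-Pearson 95% interval 5.13 to 12.2%), 57.5% of the lower class and 65.7% of all promoters tested. Median GC content was 50.2% in the higher class, 60.8% in the lower and 60.1% in all tested, and its part in these shares was not tested.

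The 15 promoters with the largest ratios were mostly those of muscle genes. Trdn, which encodes the calcium release protein triadin, had 0 reads in myoblasts and 33 in myotubes. Abra, an actin-binding activator of serum response factor signalling, had 2 and 91 reads, and Cav3, the caveolin of the muscle membrane, had 2 and 83 (ratio 25.3, 95% interval 10.1 to 314). Each of these promoters was close to empty of H3K4me2 in myoblasts. Cacna1s, the voltage sensor of excitation-contraction coupling, had 5 and 153 reads (ratio 23.2, interval 11.6 to 86.3), Casq2, a calcium store protein, 3 and 96, and Neb, the giant thin filament protein nebulin, 5 and 140 (ratio 21.2, interval 10.6 to 79.1). Capn3, a muscle calpain, had 1 and 56 reads, Myh7b, a slow myosin heavy chain, 2 and 67, and Art1, a muscle ADP-ribosyltransferase, 7 and 171. Itgb1bp2, which encodes the integrin-binding protein melusin, had 1 and 56 reads and lies on the X chromosome, where the myotube background was higher. Not all 15 were contractile genes. Fbxw7, a ubiquitin ligase subunit, had 2 and 96 reads at the start site used here, Inpp4b, a phosphoinositide phosphatase, 1 and 54, Trp63, a relative of the tumour suppressor p53, 2 and 65, Best3, of the bestrophin channel family, 1 and 45, and Gm10995 2 and 75.

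The 15 promoters with the smallest ratios were of mixed function. Aqp1, the water channel aquaporin 1, had 205 reads in myoblasts and 12 in myotubes (ratio 0.0570, 95% interval 0.0269 to 0.0943). Fgf15, a growth factor, had 174 and 15 reads, Cbs, an enzyme of the transsulfuration pathway, 105 and 9, and Nov, a secreted CCN matrix protein, 92 and 4. These promoters held many reads in myoblasts and few in myotubes. Others of the 15 act in lipid mediator or fatty acid metabolism, namely Alox5ap (90 and 5), Alox8 (51 and 2) and Acsbg1 (31 and 2), or are receptors, namely Nmbr (47 and 3) and Vipr2 (33 and 2). Ptprn (59 and 2), Spn (54 and 2), Tnfsf13b (35 and 1), Ly6a (50 and 3), Tll2 (71 and 5) and Nacad (76 and 6) completed the set. In myoblasts these promoters had from 0 to 41 H3K27ac reads and from 1 to 38 H3K4me3 reads, the highest of both being at Aqp1, and from 14 to 74 H3K4me1 reads, the highest being at Tll2.

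**Figure D2:**
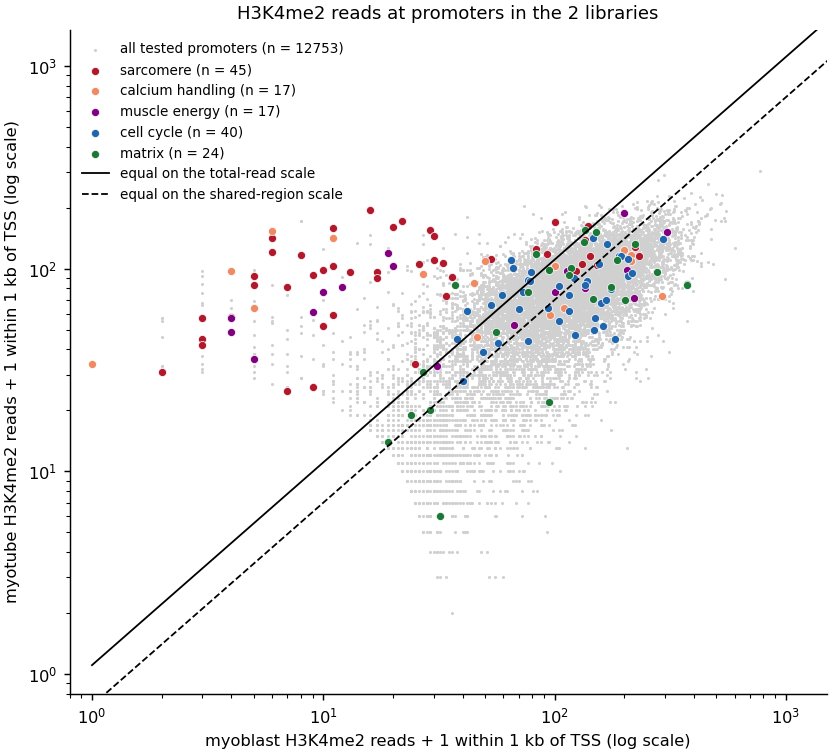
H3K4me2 reads plus 1 within 1 kb of the TSS in the myoblast library (x, log scale) and the myotube library (y, log scale) for 12753 tested promoters (grey) and members of 5 gene lists with at least 30 reads, with lines of equality on the total-read (solid) and shared-region (dashed) scales. Most sarcomere promoters lie far above both lines with few myoblast reads, whereas cell cycle promoters lie within the cloud.

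Of 14 tested transcription factors of the muscle lineage, 2 were past 2-fold higher and 1 lower, beside 2.02% and 10.4% of all promoters tested. Myog, the bHLH factor that starts terminal differentiation, had 26 reads in myoblasts and 107 in myotubes (ratio 3.61, 95% interval 2.40 to 5.94), and Mef2c, its MEF2 partner, 5 and 53 (ratio 8.12, interval 3.85 to 30.7). These were the 2 that were higher. Myod1 had 45 and 25 reads (ratio 0.510 on total reads, 0.806 on the shared-region scale) and Myf5 89 and 55 (0.562 and 0.888), neither past 2-fold on both scales. Mef2b was lower, with 27 and 4 reads, and Mef2a, at 139 and 65, was below 1 on both scales without being past 2-fold on both. The median ratio of the 14 was 0.60, beside 0.594 over all promoters tested.

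The sarcomere list covered 54 proteins of the thin and thick filaments, the Z-disc and the M-band. Of these, 31 promoters were past 2-fold higher, 14 were tested and not past it, and 9 had under 30 reads, with 0 lower. The 54 promoters together held 2061 H3K4me2 reads in myoblasts and 4667 in myotubes, a ratio of 2.04 on total reads and 3.23 on the shared-region scale, beside 0.579 and 0.915 for the sum over all 22342 promoters. The median ratio of the 45 tested was 4.78, although 29 of the 31 higher promoters had under 30 myoblast reads and so owed their test to the myotube library. Acta1, skeletal muscle actin, had 15 and 193 reads (ratio 10.9, 95% interval 6.87 to 21.2), Myh3, embryonic myosin heavy chain, 7 and 116 (13.2, interval 7.03 to 38.0), and Tnnt3, fast troponin T, 16 and 95 (5.10, interval 3.14 to 9.75). Of these 3 genes, none overlapped a myoblast peak. Other members were already marked in myoblasts and not past 2-fold on both scales. Des, the intermediate filament protein desmin, had 134 and 138 reads (ratio 0.929 on total reads, 1.47 on the shared-region scale), Tpm2, a tropomyosin, 221 and 127 (0.520 and 0.822), and Ldb3, a Z-disc protein, 231 and 114 (0.447 and 0.707). Adult fast myosins had few reads, with Myh4 at 0 and 21 reads and Myh2 at 2 and 4, while Smpx, on the X chromosome, had 3 and 57.

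The other muscle lists were split between empty and already marked promoters, and their counts stand beside 2.02% higher and 10.4% lower over all promoters tested. Of 17 tested genes of calcium handling, 6 were higher (Trdn, Cacna1s, Casq2, Srl, Casq1 and Hrc) and 1 lower, Jph1. Of 17 genes of muscle energy metabolism, 8 were higher (Ampd1, Cox6a2, Mb, Ckmt2, Ckm, Cox8b, Pygm and Pgam2), and Ckb, the brain-type creatine kinase, was lower with 220 and 71 reads, a call that ended within GC bins (ratio 0.545). Ckm, the muscle type, had 8 and 60. Of 11 synapse genes, 2 were higher, Colq, the collagen tail of acetylcholinesterase (5 and 82), and Musk, the receptor kinase of the synapse (38 and 98), with 0 lower. Of 15 genes of adhesion and fusion, 3 were higher and 0 lower. Besides Cav3, these were Tmem8c, which encodes the fusion protein myomaker (41 and 143), and Gm7325, the myomerger locus (32 and 73). All 6 higher calcium and all 8 higher energy promoters had under 30 myoblast reads and so owed their test to the myotube library. The same held for 1 higher synapse and 1 higher fusion promoter. The medians of these 4 lists, 0.930, 0.961, 0.814 and 0.806 on total reads, lay below 1 but turned to 1.47, 1.52, 1.29 and 1.27 on the shared-region scale, and lay above the median of all promoters tested (0.594 and 0.939). This was not particular to muscle lists, since the housekeeping median was 0.896 and 1.42 on the same scales. The Cdk inhibitor and matrix medians, 0.698 and 0.690 on total reads, also lay above that of all promoters.

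Genes of proliferation kept H3K4me2 at their promoters. Of 40 genes of the cell cycle list, 0 were higher and 3 were lower, namely Ccnd1, the G1 cyclin D1 (147 and 49 reads, ratio 0.305, 95% interval 0.213 to 0.418), Cdc20, an activator of the anaphase-promoting complex (161 and 51), and Tk1, thymidine kinase (181 and 44), beside 10.4% lower over all promoters tested. Within GC bins the split turned to 3 higher (Kif11, Cdk2 and Mki67) and 1 lower, Tk1. All 40 promoters tested overlapped a peak in both lists, beside 97.1% of all tested promoters in the myoblast list and 91.9% in the myotube list. Their median ratio of 0.598 was close to the 0.594 of all promoters. Ccna2, cyclin A2, had 69 and 62 reads, its direction turning between scales (0.812 and 1.28). Of 17 immediate early genes none was past 2-fold in either direction, with a median ratio of 0.483 and Fos at 250 and 214 reads. Among 15 tested inhibitors of differentiation 3 were lower, Twist2 (412 and 108), Snai1 (210 and 66) and Mdfi (33 and 10), while Id1 (174 and 115) and Id3 (125 and 121) were not. Within GC bins Twist2 alone of these was lower and 1 gene of the list was higher. Cdkn1c, a Cdk inhibitor, was lower with 62 and 11 reads, the 1 call among 7 tested genes of that list.

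Of 24 tested matrix genes, beside 10.4% lower and 2.02% higher over all promoters, 6 were lower (Timp3, Ctgf, Col6a3, Col4a1, Col4a2 and Col6a1) and 1, Col5a2, was higher with 36 and 82 reads. Col4a1 and Col4a2 encode the chains of basement membrane collagen and share 1 divergent promoter, so their 374 and 83 or 82 reads count 1 measurement. Ctgf, a secreted target of TEAD factors, had 276 and 95 reads, and Col6a3 94 and 21. In the signalling list 1 of 20 tested genes was lower (Igfbp4, 48 and 16) and 0 were higher, and within GC bins 0 were lower and 1 was higher. Of 18 housekeeping genes 1 was past 2-fold, Tubb5, a beta tubulin (42 and 97), against 3 higher within GC bins. Actb had 101 and 105 reads and Gapdh 159 and 124, so that their ratios of 0.938 and 0.705 turned to 1.48 and 1.11 on the shared-region scale. Among the enzymes of H3K4 methylation themselves, Smyd1, a methyltransferase family member of heart and skeletal muscle, was higher (22 and 98), Mll3 was lower (189 and 52), and 15 further genes of the 17 tested were not past 2-fold, whereas within GC bins 4 were higher and 1 lower. The 6 lists of other cell types, which hold 40 genes, had 11 tested promoters, none higher and 3 lower, Krt14 (46 and 6), Lpl (139 and 30) and Kdr.

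**Figure D3:**
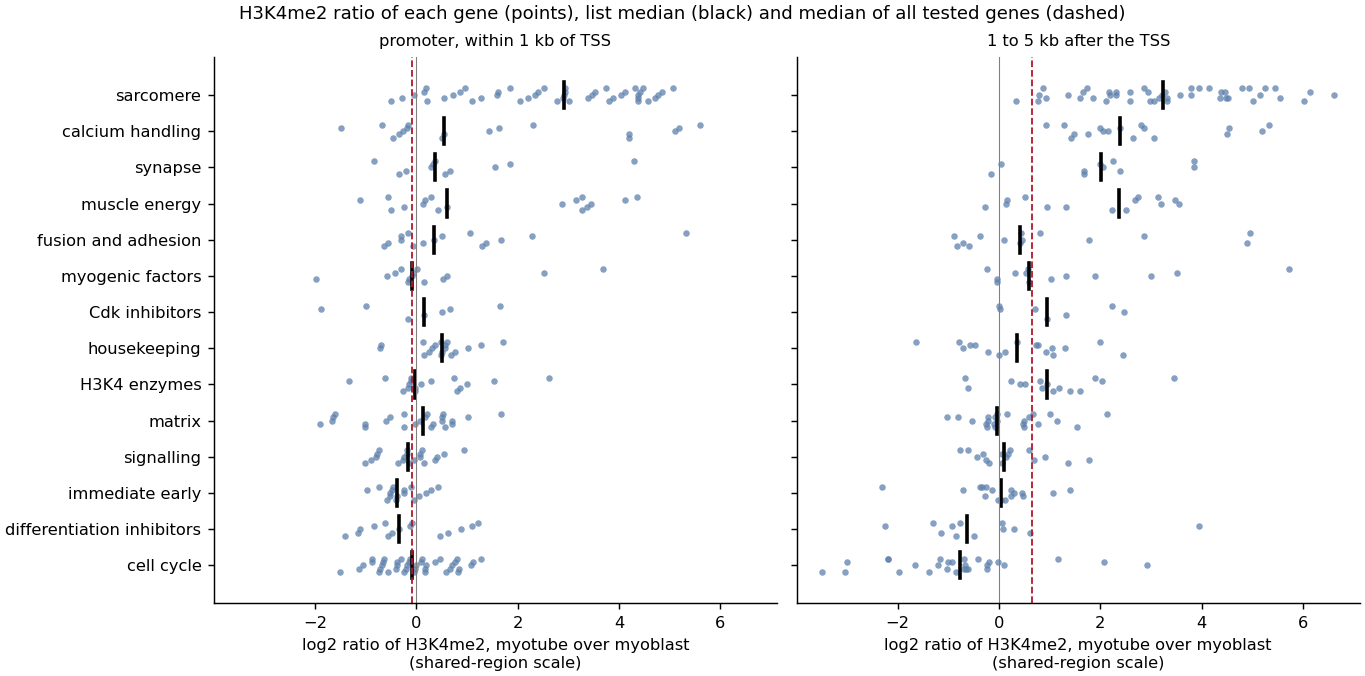
Log2 ratio of H3K4me2 reads, myotube over myoblast, on the shared-region scale for each tested gene (points) of 14 lists, within 1 kb of the TSS (left) and from 1 to 5 kb after it (right), with the list median (black bar) and the median of all genes tested (dashed). On the total-read scale every point and line lies 0.66 further left. This places the promoter medians of calcium handling, synapse, muscle energy, fusion, Cdk inhibitor, matrix and housekeeping genes below 0. In the right panel the calcium, synapse and muscle energy medians lie further above the dashed line than in the left and the sarcomere median less far above it, while the fusion median, above the line in the left panel, lies below it, as do those of myogenic factors and cell cycle genes.

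H3K4me2 further into the gene was more often past 2-fold higher than at the promoter. In windows from 1 to 5 kb after the TSS, 8913 genes had at least 30 reads, of which 1831 (20.5%) were past 2-fold higher in myotubes and 624 (7.00%) lower, with a median ratio of 0.998, or 1.58 on the shared-region scale. These windows also followed GC content, with a median ratio of 2.18 in the poorest bin (37.5% GC) and 0.466 in the richest (55.4%), and within GC bins 1270 were higher and 1108 lower. Of the higher windows 148 belonged to a promoter that was itself past 2-fold higher, 1583 to a promoter tested and past 2-fold in neither direction, and 21 to a lower one. The remaining higher windows belonged to promoters with under 30 reads. Over all 12753 promoters tested, with or without a tested window, these classes held 257, 11168 and 1328, so shares of the 2 sets are not directly comparable. A protein-coding TSS lay inside 1034 of the 8913 windows, and without these 1716 were higher and 531 lower. As at promoters, a window with few myoblast reads could reach the minimum of 30 only through its myotube reads. A window with few myotube reads could reach it only through its myoblast reads.

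Some muscle genes with a marked promoter in myoblasts, named here after their values were seen, were higher in the downstream window. Jph1, a junctophilin that ties the surface membrane to the calcium store, had 291 and 72 reads within 1 kb of its TSS, yet 31 and 162 from 1 to 5 kb after it (ratio 4.60, 95% interval 3.20 to 7.17). Atp2a2, a calcium pump of the sarcoplasmic reticulum, had 213 and 93 at the promoter and 43 and 214 downstream (4.41, interval 3.23 to 6.39), and Mef2a had 139 and 65 and then 22 and 127 (5.02, interval 3.30 to 8.61). In all 3 the promoter ratio was below 1 on both scales and the downstream ratio above 4. Ryr1, the calcium release channel, had 45 and 45 reads at the promoter and 26 and 117 downstream, and Dysf, the membrane repair protein dysferlin, 74 and 135 and then 11 and 248. Within GC bins these 5 downstream windows were again past 2-fold higher. Chrng, the gamma subunit of the acetylcholine receptor, had 71 and 147 reads and then 21 and 221. Myog itself had 22 and 182 downstream reads (7.18, interval 4.78 to 12.2).

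By list, and beside 20.5% of all downstream windows and 2.02% of all promoters, the downstream windows of 13 of 17 tested calcium genes were higher, against 6 of 17 at the promoter. The same counts were 8 of 10 against 2 of 11 for synapse genes, 38 of 46 against 31 of 45 for sarcomere genes and 8 of 14 against 8 of 17 for muscle energy genes, with 0 windows lower in each list. Here too, windows with few myoblast reads were tested only through their myotube reads, and their number was not counted. The 2 further muscle lists lay nearer to the share of all windows, with 4 of 14 fusion genes and 4 of 13 myogenic factors higher. Their medians were 0.844 and 0.959, below the 0.998 of all windows, while those of the calcium, synapse, sarcomere and muscle energy lists ran from 2.57 to 5.98. Within GC bins 15 calcium, 6 synapse, 41 sarcomere and 9 muscle energy windows were higher, and 3 fusion windows were higher and 3 lower. Windows that hold another TSS made up 7 of the 38 sarcomere windows, 1 of the 13 calcium windows and none of the 8 synapse windows. In mean signal over all 54 sarcomere genes, the promoter held 8.90 RPM in myoblasts and 18.2 in myotubes, and the downstream window 8.15 and 27.3.

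The cell cycle genes went the other way downstream. Of 28 tested windows 11 were lower, beside 7.00% over all genes, and 2 higher, Rrm1 and Cdk2, with a median ratio of 0.370. Within GC bins 22 were lower, with a median of 0.334. Plk1, a mitotic kinase, had 122 and 46 reads at the promoter and 79 and 4 downstream, Mcm2, a subunit of the replicative helicase, 103 and 54 and then 58 and 4, and Cdc20 161 and 51 and then 124 and 10. Even Top2a, which encodes topoisomerase II and whose promoter had 37 and 44 reads, had 38 and 5 downstream. In mean signal over the 40 genes the promoter held 28.3 and 16.3 RPM and the downstream window 12.7 and 4.97. Id1 (303 and 85) and Twist2 (107 and 15) also had lower downstream windows.

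Over the merged peak regions, H3K4me2 differed more often away from promoters. Of 57509 regions, 22830 had a peak in both lists, 12463 in the myoblast list only and 22216 in the myotube list only, the last being short (median 312 bp) and sparse, with 1 myoblast and 8 myotube reads at the median, so that 9.53% of them reached 30 reads. Of the 27071 regions tested, 2340 (8.64%) were past 2-fold higher in myotubes and 3725 (13.8%) lower. The split was 2340 and 9528 on total reads alone, 4706 and 3725 on shared regions alone, and 2967 and 3353 within GC bins, where 1675 and 2353 of the calls recurred. Of the higher regions 709 (30.3%) had a myoblast peak, and 660 had 5 or fewer myoblast reads. Within 1 kb of a TSS 3.40% of 13370 regions were higher (95% interval 3.10 to 3.73%), against 19.3% of 2768 at 1 to 5 kb, 12.3% of 7983 at 5 to 50 kb and 12.6% of 2950 beyond. The regions nearest to a TSS were also the deepest, with a median of 101 and 70 reads against 30 to 34 and 26 to 29 elsewhere, and within GC bins 1091 of the 13370 and 507 of the 2768 were higher. The share of lower regions ran from 12.2% to 15.4% over the same classes. Regions over 5 kb from a TSS made up 57.7% of the higher regions (55.7 to 59.7%), 44.9% of the lower and 40.4% of all tested, and 46.1% of the higher regions within GC bins. Median GC content was 44.8% in the higher, 55.4% in the lower and 51.9% in all tested regions.

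**Figure D4:**
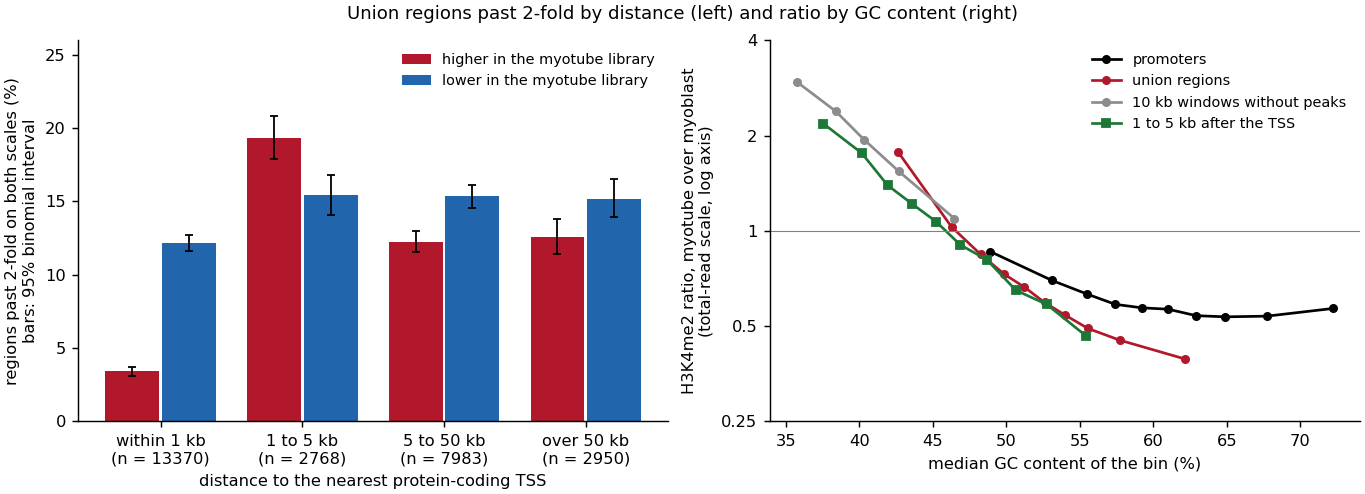
Left, percent of union regions past 2-fold on both scales, higher (red) or lower (blue) in the myotube library, by distance to the nearest protein-coding TSS, with 95% binomial intervals. Right, myotube over myoblast H3K4me2 ratio (total-read scale, log axis) against median GC content of the bin, as the median over bins of features (for windows without peaks, the ratio of summed reads). Higher regions run from 3.40% within 1 kb to 19.3% at 1 to 5 kb, and the ratio falls with GC content in each kind of feature, least at promoters.

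The distal regions with the largest ratios had no H3K4me2 read in the myoblast library. A region of 2258 bp in Arid1b, a chromatin remodelling gene (chr17:5126660-5128917, overlapping an exon), had 0 and 120 reads, at least 36.1-fold higher against a floor of 3 reads, with 28.9 as the lower end of the exact 95% interval of the ratio. The others were an intergenic region whose nearest TSS, 155414 bp away, is that of Fndc1 (chr17:7840284-7842425, 0 and 77 reads, at least 23.2-fold), and introns of Sesn1 (chr10:41538876-41540142, 0 and 61, at least 18.4-fold), of Mob2 (chr7:149217388-149218660, 0 and 59, at least 17.8-fold) and of Akap6, which encodes a kinase anchoring protein of muscle nuclei (chr12:53975145-53976420, 0 and 57, at least 17.2-fold). For the last 4 the lower ends of that interval were 18.4, 14.5, 13.99 and 13.5. All 5 had more H3K27ac reads in myotubes, with 0 and 69, 4 and 141, 0 and 59, 1 and 28, and 1 and 130. The H3K27ac libraries differed in depth, with 1858771 reads in myoblasts and 4725910 in myotubes, and scaled to total reads these ratios were 27.5, 11.2, 23.6, 5.70 and 25.8. In the opposite direction a region overlapping an exon of Med25 (chr7:52140883-52142131) had 55 and 0 reads, a Fibcd1 intron (chr2:31692265-31693098) 36 and 0, and intergenic regions nearest to Sfswap (chr5:129804755-129805703) 37 and 0, A230072I06Rik (chr8:12131357-12132902) 33 and 0, and Tmem38b (chr4:53899066-53899725) 30 and 0.

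Some genes held many such regions, and are named here after their values were seen. Macf1, a cross-linker of actin and microtubules, had 14 higher regions of 20 tested, with 138 and 788 reads over the 14. Syne1, the nesprin that anchors nuclei in muscle fibres, had 6 of 12 (90 and 433 reads), Filip1, a filamin-binding protein, 6 of 6 (25 and 367), and Akap6 5 of 12 (105 and 505). The other genes with at least 6 were 4933426M11Rik (7 of 7), Dlgap4 (7 of 12) and Osbpl9 (6 of 10). Gene length ran from 90.3 to 530.5 kb among these 7 genes, and its part in the counts was not tested. Among lower regions, Tns1, the adhesion protein tensin, had 11 of 23 tested (1538 and 288 reads) and Fam19a5 7 of 8 (657 and 128). Of the genes with 6, Sema7a, a semaphorin, had 6 of 6 (433 and 73) and Ltbp2, a matrix protein, 6 of 10 (558 and 149).

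Motif letters differed between higher and lower distal regions for MEF2 and AP-1. In 500 bp windows at the highest H3K4me2 signal of regions over 5 kb from a TSS, the MEF2 letters were in 11.3% of 1350 higher, 1.79% of 1673 lower and 5.09% of all 10933 tested windows. AP-1 was in 17.3%, 28.6% and 26.6%. The E-box was in 37.04%, 39.7% and 41.5%, TEAD in 31.9%, 28.2% and 31.3%, and RUNX in 6.30%, 5.08% and 6.18%. Since the MEF2 letters are poor in G and C and the higher windows had a median GC content of 46.0% against 54.6% in the lower, the shares were also taken in windows of 45 to 55% GC. There the MEF2 letters were in 8.94% (95% interval 6.95 to 11.3%) of 716 higher and 2.38% (1.46 to 3.65%) of 840 lower windows, beside 5.07% of all such windows. AP-1 was in 16.8% and 35.2%, beside 29.7%, and the E-box in 42.5% and 35.2%, beside 42.3%. Median GC content within this band still differed, at 48.7% in the higher and 52.0% in the lower windows. Under 45% GC the MEF2 letters were in 13.98% (11.2 to 17.1%) of 565 higher and 10.7% (9.09 to 12.4%) of all 1387 windows, with overlapping intervals. At 55% GC and over they were in 13.04% of 69 higher and 2.24% of all 2680 windows.

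At promoters, the E-box was in 28.0% (95% interval 22.6 to 33.9%) of the 257 higher, 17.9% of the lower and 15.2% of all tested, and the MEF2 letters in 7.78% (4.82 to 11.8%), 1.36% and 1.41%. Among CpG-poor promoters alone the E-box shares were 29.2% of the higher (23.5 to 35.5%), 23.05% of the lower (19.6 to 26.8%) and 18.3% of those tested, the first 2 intervals overlapping, and the MEF2 shares were 8.47%, 1.596% and 1.97%. TEAD letters were in 20.2% of the higher and 11.2% of all tested promoters. The Tnnt3 sequence above holds all 3 kinds of match within 300 bases, and the Neb sequence the E-box.

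Other marks of active chromatin differed in the same direction at the called features. Of these marks H3K4me3 was not independent of the promoter counts, since its reads in both cell types chose the TSS of each gene, whereas none entered the counts over peak regions. At the 257 higher promoters the median ratio on the total-read scale was 5.41 for H3K4me3, 4.13 for H3K27ac and 1.92 for H3K4me1, beside 0.861, 0.564 and 0.939 over all tested. At the 1328 lower promoters it was 0.630, 0.356 and 0.446. For H3K27me3, the mark of Polycomb repression, the medians were 0.875 at higher and 0.778 at lower promoters beside 0.840, and for H3K36me3, the mark of transcribed gene bodies, 1.17 and 1.14 beside 0.978. Acta1 had 6 and 489 H3K27ac reads (ratio 27.5) and 4 and 215 H3K4me3 reads (36.3), and Myog 18 and 312 (6.48) and 13 and 89 (5.41). At the 1350 higher regions over 5 kb from a TSS the median ratio was 4.33 for H3K27ac, 3.03 for H3K4me3 and 1.52 for H3K4me1, beside 0.835, 1.26 and 0.634, and at the 1673 lower regions 0.272, 0.654 and 0.344. These medians rest on few reads for some marks. Median reads were 3 and 54 (H3K27ac) and 3 and 11 (H3K4me3) at the higher regions, and 15 and 8, and 5 and 3, at the lower. For H3K27me3 and H3K36me3 they ran from 2 to 5 in both classes. Across the 10933 distal regions Spearman's rho between the H3K4me2 ratio and that of H3K27ac was 0.743, of H3K4me1 0.697 and of H3K4me3 0.581. Across 12753 promoters it was highest for H3K4me1 (0.580), then H3K4me3 (0.394) and H3K27ac (0.386). These points share libraries and base composition, and in windows without peaks the ratios of H3K4me1 and H3K27ac also fell with GC content, from 1.84 to 0.933 and from 1.66 to 0.893, whose part in the correlations was not tested.

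**Figure D5:**
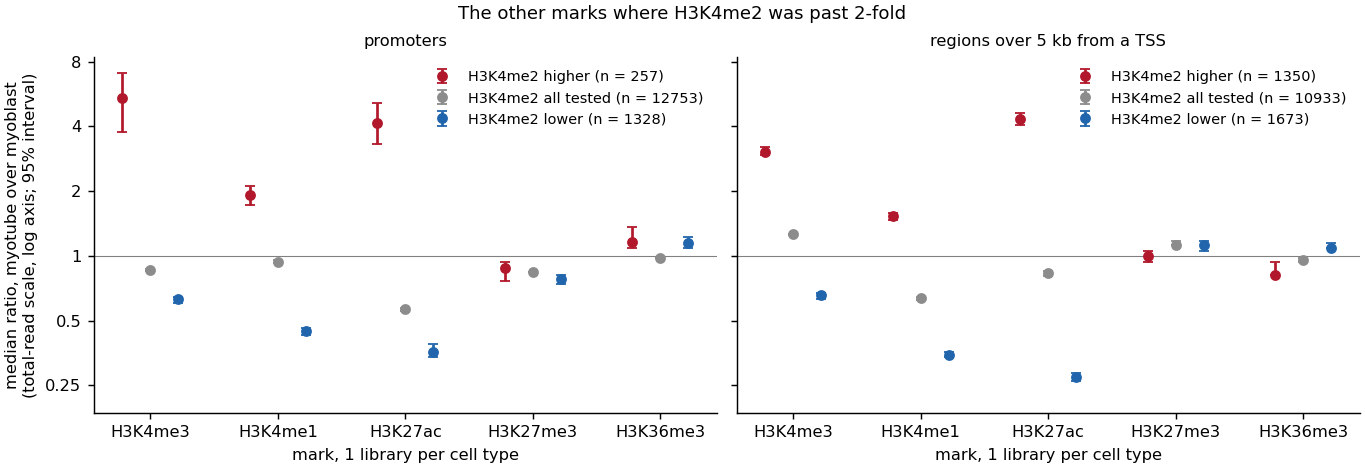
Median ratio of myotube to myoblast reads (total-read scale, log axis, bars 95% order-statistic intervals of the median) of 5 other marks at promoters (left) and at regions over 5 kb from a TSS (right) where H3K4me2 was past 2-fold higher (red), lower (blue), or at all features tested (grey). H3K4me3, H3K4me1 and H3K27ac lie above grey in red and below grey in blue, H3K27ac at distal regions being 4.33, 0.835 and 0.272, whereas H3K27me3 and H3K36me3, with few reads per feature, lie near grey.

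The genes of muscle microRNAs, which have no protein-coding TSS here, were read from 5 kb before to 5 kb after each hairpin. Mir1a-1 had 19 reads in myoblasts and 566 in myotubes (ratio 25.6, 95% interval 17.1 to 44.99) and Mir133a-2, of the same cluster, 9 and 138 (12.6, interval 7.08 to 30.9). The cluster held a merged region of 5748 bp with 13 and 384 reads and a second, from which the sequence above was taken, with 2 and 104. Mir206 had 75 and 222 reads (2.65, interval 2.05 to 3.52) and Mir133b, in its neighbourhood, 38 and 169 (3.93, interval 2.81 to 5.87), so that this cluster was already marked in myoblasts. The windows of neighbouring hairpins overlap and are not separate measurements. Mir486, within Ank1, had 246 and 353 reads, and Mir499, in the Myh7b locus, 66 and 59, although the Myh7b promoter itself had 2 and 67. In the same windows H3K27ac had 8 and 721 reads at Mir1a-1 (ratio 31.6 scaled to total reads), 43 and 256 at Mir206 (2.30), 111 and 341 at Mir486 (1.20) and 13 and 35 at Mir499 (1.01). The mature 3p strands from RefSeq (GRCm38.p6), with the seed of bases 2 to 8 in capitals, have different seeds.
mmu-miR-206-3p: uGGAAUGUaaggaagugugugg
mmu-miR-133b-3p: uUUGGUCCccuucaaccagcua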

How the data were processed

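The members and gene lists were chosen with earlier results of these data known. The authors deposited uniquely aligned reads of 34 bp as lines that each hold a count of 1, on mm9 per the labels, and MACS peak lists with a score per peak, which runs from 50.0 upward in both H3K4me2 lists and was used only to select peaks in an alternative. The study's methods name Mosaik as aligner for the myoblast libraries. The aligner of the myotube libraries, the MACS settings and any control are not given in the sources used here. Reads sharing position and strand made up 3.14% of the myoblast and 1.15% of the myotube H3K4me2 library and were kept.

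Reads were extended to 150 bp and their midpoints counted on chromosomes 1 to 19 and X (4288951 and 4751850 reads). Chromosome lengths of the reference, NCBIM37 with its GENCODE annotation, were checked against the highest read ends, which passed them by at most 5 bp. For each gene the TSS with the most H3K4me3 reads was used. Peaks overlapping by 1 bp were merged. Shares carry Clopper-Pearson intervals, medians order-statistic intervals. Promoters with at least 55% GC and a CpG ratio of at least 0.6 in 1000 bp were called CpG-rich. No test between groups was possible with 1 sample each, and no p-value is given. Named are the 15 promoters and 5 distal regions (over 5 kb from a TSS) with the largest and the smallest ratio, the list members past 2-fold and 14 preset genes. Counts past 2-fold in windows after the TSS, the GC scaling and other genes named for their windows were added after the data were seen. The 20 lists held 347 genes. Intervals came from scipy 1.17.1, tables from pandas 2.3.3 and numpy 2.4.6 and plots from matplotlib 3.10.9, all under Python 3.11.15, and the counting was tested on simulated data. Alternatives covered window size, read minimum, added reads, scaling, peak score, duplicates, read extension and TSS choice.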

Additional observations from a re-analysis of the deposited data

How the results depend on the processing

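No paired analysis was possible because each group has 1 library. Of 132 alternatives, 71 kept the direction and size of the value, 44 moved it and 17 turned its direction; for these the cause was not tested. The median ratio at shared promoters of 0.606 was 0.558 in windows of 500 bp, 0.655 in windows of 2 kb, 0.617 with 5 reads added, 0.958 scaled by shared regions, 0.390 scaled by windows without peaks and 0.591 over promoters in either list. Total reads alone gave 4578 lower promoters and 9528 lower regions, and shared regions alone 822 and 4706 higher. Against 2340 higher and 3725 lower regions, a minimum of 10 reads gave 7023 and 5191, and counting 1 kb around the highest signal 4867 and 4667, both with more higher than lower. A minimum of 100 reads gave 92 higher and 884 lower promoters and 392 higher and 1469 lower regions. The distal share of higher regions was 49.6% with the TSSs of all transcripts and 46.1% within GC bins, where higher promoters numbered 889 and lower downstream windows 1108. In 1 kb windows motif shares were 58.5% (E-box), 29.5% (AP-1), 20.4% (MEF2), 50.4% (TEAD) and 11.6% (RUNX), and at 45 to 55% GC 42.5% (E-box) and 8.94% (MEF2). List medians turned above 1 on the shared-region scale and within GC bins for calcium (1.47 and 1.30), synapse (1.29 and 1.39), muscle energy (1.52 and 1.38), fusion (1.27 and 1.43), Cdk inhibitors (1.10 and 1.11), matrix (1.09 and 1.04) and housekeeping genes (1.42 and 1.59), and within GC bins alone for myogenic factors (1.08) and H3K4 enzymes (1.10). They moved without turning for the cell cycle (0.945 and 0.943), immediate early (0.763 and 0.888) and signalling lists (0.894 and 0.962). Divided by the median of all tested features, the ratios of other marks were 0.732 (H3K4me3) and 0.475 (H3K4me1) at lower promoters, 2.21 and 0.4997 (H3K4me1) at higher and lower regions, 7.32, 0.631, 5.59 and 0.451 (H3K27ac) at higher and lower promoters and regions, 1.04 and 0.926 (H3K27me3) at higher and lower promoters, the first turning above 1, 1.05 (H3K27me3) at higher regions and 1.17 (H3K36me3) at lower regions. Regions and promoters under 30 reads, which include 90.5% of myotube-only regions, could not be called at this depth.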
